A study of Mus musculus with 6 samples.

Results

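The 6 genes described here were Thbs1, Thbs2, Thbs3, Thbs4, Comp and Cd47, out of 54532 genes in the deposited table. They were taken by gene symbol as the thrombospondin family and its receptor. No measured value enters that rule, but the family was proposed with earlier results of these data known. RNA-seq of heart tissue compared 3 Chow libraries with 3 HFpEF libraries, each from a different male C57BL/6 mouse aged 6 to 8 weeks at the start. Chow mice received standard chow and regular drinking water. HFpEF mice, a model of heart failure with preserved ejection fraction, received a diet with 60% of its calories as fat and L-NAME, a nitric oxide synthase inhibitor, at 0.5 g/L in the water, both for 12 weeks. Diet and L-NAME were given together, so their parts cannot be told apart, and only males were used. The comparison asked how each gene differed between the groups and whether the paralogs followed the pattern of Thbs1.

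Thrombospondins are secreted, calcium-binding matricellular glycoproteins, which act on cells and on matrix assembly more than as structural fibres. Thbs1 and Thbs2 assemble as trimers and carry the type 1 repeats that bind CD36, and Thbs1 also activates latent TGF-beta. Thbs3, Thbs4 and Comp assemble as pentamers without type 1 repeats. Cd47, an integrin-associated membrane protein of most cells, is a receptor for Thbs1, and Thbs1 binding to it restrains nitric oxide and cGMP signaling in vascular cells. In the heart these ligands are known mainly from injured and pressure-loaded myocardium, where fibroblasts and vessel wall cells make much of them.

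The values are FPKM, read fragments scaled to exon length and to a factor for each library, so levels can be compared between genes. Multiplying FPKM by exon length gave back 13076772 to 16027084 reads per library, and the read counts below come from that step. The factor of a library was not its number of recovered reads. It stood for 19316914 reads in HFpEF replicate 3, where 15196287 were recovered, and for 14239712 in Chow replicate 1, where 15574914 were. Comparisons of FPKM between libraries rest on that factor. The 6 libraries did not look alike beyond their groups. HFpEF replicate 3 had 7.17% of its reads on mitochondrially encoded genes against 20.1% to 26.0% in the other 5. The study took left ventricular myocardium, and ventricular cardiomyocyte markers were abundant in all 6 libraries, but the summed FPKM of 7 atrial cardiomyocyte markers was 577 in Chow replicate 3, 2682 in HFpEF replicate 1 and 4054 in HFpEF replicate 2 against 29.6 to 72.6 in the other 3. The fold changes below are therefore also given without single libraries.

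The genes lie on 6 different chromosomes of GRCm38. Thbs1 (ENSMUSG00000040152) is at chr2:118111876-118127133 on the plus strand, Thbs2 (ENSMUSG00000023885) at chr17:14665500-14694235 on the minus strand and Thbs3 (ENSMUSG00000028047) at chr3:89215180-89226837 on the plus strand. Thbs4 (ENSMUSG00000021702) is at chr13:92751590-92794818 on the minus strand, Comp (ENSMUSG00000031849) at chr8:70373558-70382066 on the plus strand and Cd47 (ENSMUSG00000055447) at chr16:49800533-49915010 on the plus strand. Thbs3 shares 318 exon bases, 6.59% of its exon length, with Mtx1 on the opposite strand, and Thbs1 shares 208 bases, 3.42%, with the noncoding gene Gm29233, also on the opposite strand. Gm29233 was at 0 in all 6 libraries. Mtx1 stayed between 3.41 and 3.97 FPKM. Whether the counting used strand is not given in the sources used here.

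Promoter windows are shown for 3 ligands that were highest in the same library, HFpEF replicate 3, and for the receptor, which varied least. Each runs 5′ to 3′ from 250 bases before to 50 bases after the RefSeq start on GRCm38.p6, 300 bases in all. Windows were matched by symbol for 4 of the 6 genes, not for Thbs1 and Comp. Capitals mark matches, on either strand, to 5 letter patterns. These are TATAAA for the TATA box, GGGCGG for the GC box, CCAAT for the CCAAT box, TGANTCA for the AP-1 site and CAGAC for the SMAD box. Thbs2 is at chr17:14694213-14694512 on the minus strand, Thbs3 at chr3:89214930-89215229 on the plus strand, Thbs4 at chr13:92794769-92795068 on the minus strand and Cd47 at chr16:49855404-49855703 on the plus strand. For Cd47 the table held 2 windows that overlap, and the one with the lower start is shown.
Thbs2: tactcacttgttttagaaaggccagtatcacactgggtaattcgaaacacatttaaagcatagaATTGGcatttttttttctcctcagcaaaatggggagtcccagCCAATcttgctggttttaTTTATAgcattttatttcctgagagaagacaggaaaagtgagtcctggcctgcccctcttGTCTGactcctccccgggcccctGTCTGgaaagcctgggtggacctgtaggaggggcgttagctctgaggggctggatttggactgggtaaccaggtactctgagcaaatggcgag
Thbs3: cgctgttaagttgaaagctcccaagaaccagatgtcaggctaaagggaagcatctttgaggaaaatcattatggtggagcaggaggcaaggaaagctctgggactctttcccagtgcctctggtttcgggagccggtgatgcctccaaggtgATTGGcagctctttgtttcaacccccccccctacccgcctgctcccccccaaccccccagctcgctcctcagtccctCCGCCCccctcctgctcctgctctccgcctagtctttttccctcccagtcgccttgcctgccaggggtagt
Thbs4: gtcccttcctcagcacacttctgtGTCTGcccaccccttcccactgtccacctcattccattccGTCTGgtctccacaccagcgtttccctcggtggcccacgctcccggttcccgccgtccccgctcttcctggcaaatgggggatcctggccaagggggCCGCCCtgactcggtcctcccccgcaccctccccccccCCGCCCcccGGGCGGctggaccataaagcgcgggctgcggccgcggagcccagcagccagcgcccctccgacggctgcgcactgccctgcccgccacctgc
Cd47: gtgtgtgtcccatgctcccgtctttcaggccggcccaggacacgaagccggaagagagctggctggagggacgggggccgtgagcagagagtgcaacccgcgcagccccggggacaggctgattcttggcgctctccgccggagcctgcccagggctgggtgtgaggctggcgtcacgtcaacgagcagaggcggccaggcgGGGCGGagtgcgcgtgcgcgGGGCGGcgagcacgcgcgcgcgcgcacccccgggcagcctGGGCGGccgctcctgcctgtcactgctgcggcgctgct
The windows differed in composition. GC content was 48.3% for Thbs2, 59.0% for Thbs3, 72.0% for Thbs4 and 74.0% for Cd47, against a median of 52.7% over 32851 promoter windows. The Thbs2 window held 1 TATAAA match at position −126, counted from the start, a pattern found in 13.6% of all windows, together with 2 CCAAT and 2 CAGAC matches. The Thbs3 window held 1 CCAAT and 1 GGGCGG match. Thbs4 had 3 GGGCGG and 2 CAGAC matches, and Cd47 had 3 GGGCGG matches. GGGCGG occurs in 35.7% of all windows, CCAAT in 37.4% and CAGAC in 49.6%. TGANTCA, present in 7.81% of all windows, had no match in the 4 shown, which says only that these letters are not there.

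Thbs1, the trimeric ligand of Cd47 and CD36, was near 1 FPKM in every Chow library and very unequal among the HFpEF hearts. Its level was 0.960, 1.53 and 1.51 FPKM in Chow replicates 1, 2 and 3, and 17.1, 1.74 and 44.7 FPKM in HFpEF replicates 1, 2 and 3. The reads behind them numbered 83, 109 and 111 in the Chow libraries and 1442, 179 and 5242 in the HFpEF libraries. HFpEF replicates 1 and 3 stood far above Chow, whereas replicate 2 exceeded the highest Chow library by only 0.208 FPKM, less than the Chow SD of 0.324. The HFpEF mean was 21.2 ± 21.8 FPKM against 1.33 ± 0.324 in Chow (SD, n = 3 each), a ratio of means of 15.9. In the limma fit across 14227 genes, on log2(FPKM + 0.1), the log2 fold change was 3.00 (SE 1.08, 95% interval 0.40 to 5.59). The limma adjusted p was 0.179, so Thbs1 did not pass the threshold of 0.05. The log2 fold change was 4.30 without HFpEF replicate 2 (adjusted p = 0.0433) and 2.00 without HFpEF replicate 3 (adjusted p = 0.287).

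Thbs2, the other trimeric thrombospondin and the most abundant of the family in Chow hearts, was tightly grouped except in HFpEF replicate 3. It measured 7.90, 7.63 and 7.11 FPKM in the Chow libraries and 9.85, 10.8 and 58.1 FPKM in the HFpEF libraries, on 602 to 7861 reads. The groups did not overlap, and HFpEF replicates 1 and 2 lay close together just above Chow. The means were 7.55 ± 0.405 and 26.2 ± 27.6 FPKM (SD, n = 3 each). The log2 fold change was 1.27 (SE 0.65, 95% interval −0.29 to 2.84, limma adjusted p = 0.284). Without HFpEF replicate 3 it was 0.45, a smaller value with a much smaller error (SE 0.088), and it passed the threshold (adjusted p = 0.0380).

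Thbs3, a pentameric member, was higher in every HFpEF library than in any Chow library. Its FPKM was 1.49, 1.70 and 2.11 in Chow and 3.93, 2.66 and 15.4 in HFpEF, on 96 to 1437 reads. The order of the HFpEF hearts, replicate 3 above 1 above 2, was that of Thbs1, but replicate 2 stood farther above Chow. The log2 fold change was 1.59 (SE 0.61, 95% interval 0.13 to 3.05, limma adjusted p = 0.192), and 0.85 without HFpEF replicate 3 (adjusted p = 0.0795). The opposite-strand neighbour Mtx1 did not show the spread of Thbs3, with 3.41, 3.52 and 3.55 FPKM in Chow and 3.51, 3.85 and 3.97 FPKM in HFpEF.

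Thbs4, the pentameric member known from stressed heart muscle and tendon, was the least abundant of the 6 and the only one whose groups overlapped. It measured 1.30, 1.30 and 0.578 FPKM in Chow and 2.35, 0.772 and 6.75 FPKM in HFpEF, on 23 to 429 reads. HFpEF replicate 2 lay between the Chow libraries, while replicates 1 and 3 lay above them. The log2 fold change was 1.15 (SE 0.74, 95% interval −0.62 to 2.92, limma adjusted p = 0.371), and 0.41 without HFpEF replicate 3.

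Comp, cartilage oligomeric matrix protein, had the largest shift relative to its error. Its FPKM was 2.13, 1.67 and 3.34 in Chow and 22.2, 6.51 and 20.6 in HFpEF, on 58 to 1178 reads. All HFpEF hearts were clearly above Chow, the lowest by 3.16 FPKM, and unlike the other ligands Comp was highest in replicate 1. The means were 2.38 ± 0.866 and 16.4 ± 8.63 FPKM (SD, n = 3 each), a ratio of 6.90. The log2 fold change was 2.60 (SE 0.50, 95% interval 1.40 to 3.81) with a limma adjusted p of 0.0989. It was 3.17 without HFpEF replicate 2 (adjusted p = 0.0433), 2.35 without replicate 3 (adjusted p = 0.0886) and 2.29 without replicate 1 (adjusted p = 0.139).

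Cd47, the receptor, differed little and evenly. It measured 13.1, 11.8 and 12.4 FPKM in Chow and 14.8, 13.9 and 15.5 FPKM in HFpEF, on 870 to 1883 reads. The groups did not overlap, with 0.742 FPKM between the lowest HFpEF and the highest Chow library. The log2 fold change was 0.24 (SE 0.096, 95% interval 0.012 to 0.47, limma adjusted p = 0.201), a ratio of means of 1.18. Leaving out single libraries moved the estimate between 0.20 and 0.29.

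**Figure D1:**
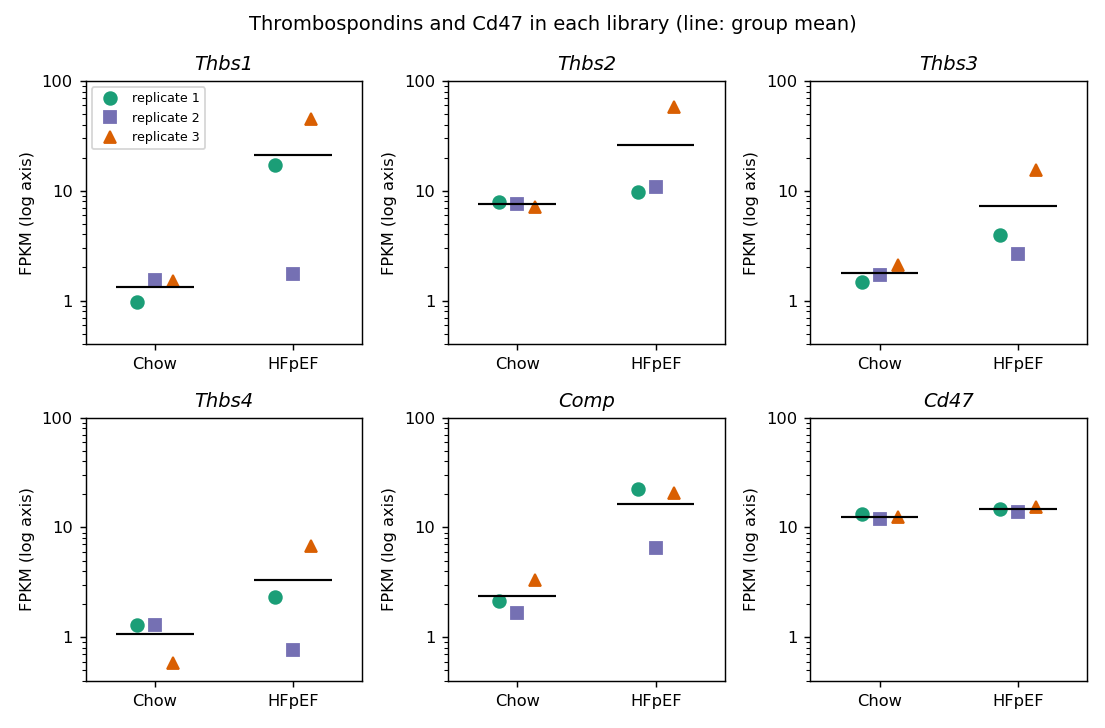
FPKM (log axis) of each gene in the 3 Chow and 3 HFpEF libraries; symbols mark the replicate number, which does not pair the groups, and the line is the group mean. Thbs1 ran from 1.74 to 44.7 FPKM among the HFpEF libraries, whereas Cd47 ran from 13.9 to 15.5.

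Read together, the limma fit called 0 of the 6 genes at an adjusted p under 0.05, where 0.0984% of all tested genes passed, and 0 at the study's added threshold of an absolute log2 fold change of 2. With limma-voom on the recovered reads the count was also 0 of 6. At an unadjusted p under 0.05, 4 of 6 (Thbs1, Thbs3, Comp and Cd47) were higher in HFpEF, beside 10.2% of all tested genes. With voom that count was 2 of 6 (Comp and Cd47), beside 1558 of 14222 tested genes. When 1 Chow library was left out it was 1 of 6 (Comp) each time. Over all 14227 tested genes the count then fell too, from 1454 with all libraries to between 882 and 938. Comp was the only one of the 6 below this threshold in every alternative run. Every HFpEF library lay above every Chow library for 5 of 6, beside 15.5% of all tested genes. The exact two-sided permutation test gave p = 0.1 for these 5, which is the smallest p that 3 against 3 samples allow, and p = 0.3 for Thbs4. Without HFpEF replicate 3, 1 of 6 (Thbs2) passed the adjusted threshold, against 2.85% of tested genes that were called higher. Without HFpEF replicate 2, 2 of 6 (Thbs1 and Comp) passed, against 0.33% of tested genes.

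**Figure D2:**
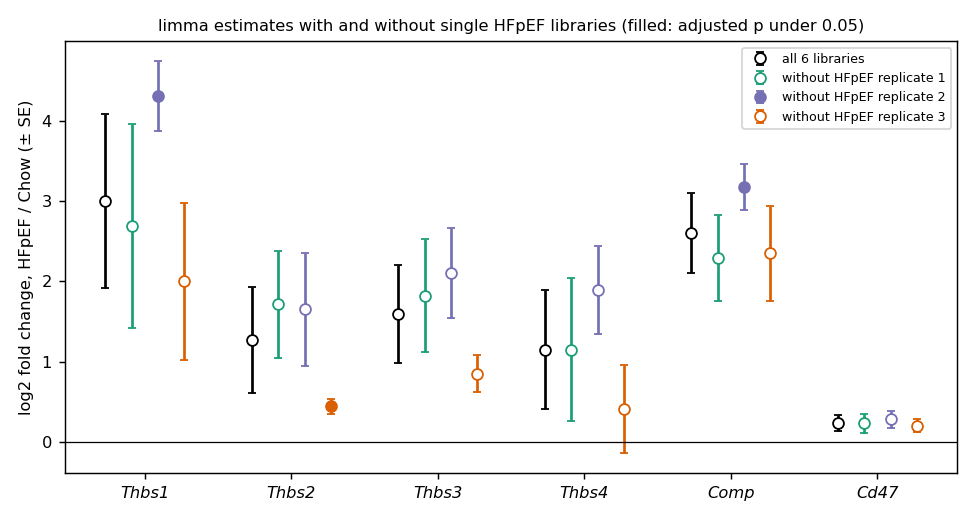
limma log2 fold change (HFpEF over Chow, on log2(FPKM + 0.1)) with its standard error for each gene, with all 6 libraries and without each HFpEF library in turn; filled points have an adjusted p under 0.05. Thbs1 moved from 2.00 to 4.30 with the library left out, and Cd47 stayed between 0.21 and 0.29.

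The paralogs followed Thbs1 in part. The order HFpEF replicate 3 above 1 above 2 above every Chow library held for 3 of the 6 genes (Thbs1 itself, Thbs3 and Cd47), and for 5.65% of all tested genes. Thbs4 kept the order among the HFpEF hearts, but its replicate 2 fell within Chow. Thbs2 was lowest in replicate 1 and Comp was highest there. Against the Chow mean, HFpEF replicate 1 was 12.8-fold for Thbs1 and 1.31-fold for Thbs2, so the trimeric pair differed most in that heart.

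**Figure D3:**
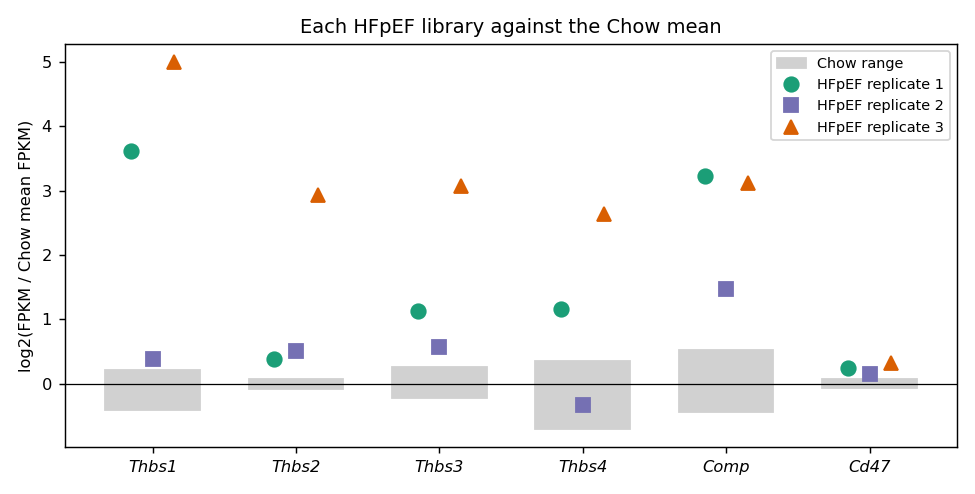
log2 ratio of each HFpEF library to the Chow mean FPKM, with the range of the Chow libraries in grey. HFpEF replicate 1 was high for Thbs1 and Comp and close to Chow for Thbs2, and replicate 3 was high for all 5 ligands.

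The difference in change from Thbs1 was tested on the log2 ratio of each gene to Thbs1 within a library. The change in HFpEF was smaller than that of Thbs1 by a log2 difference of −1.72 for Thbs2 (p = 0.3), −1.41 for Thbs3 (p = 0.4), −1.84 for Thbs4 (p = 0.2), −0.39 for Comp (p = 0.8) and −2.76 for Cd47 (p = 0.2), by exact two-sided permutation tests. None of these 5 comparisons separated the groups. The ratio of HFpEF replicate 2 lay inside the Chow range for Thbs2, Thbs4 and Cd47, just above it for Thbs3 (0.583 against at most 0.581) and clearly above it for Comp (1.84 against at most 1.10). For Cd47 over Thbs1 the log2 ratio was 3.64, 2.87 and 2.95 in Chow and −0.21, 2.93 and −1.52 in HFpEF, so Thbs1 exceeded its receptor transcript in HFpEF replicates 1 and 3 only. For Comp the sign depended on HFpEF replicate 3: without it, Comp changed more than Thbs1, by 0.35 (exact p = 0.6).

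As a description over the 6 libraries, which share 2 groups and 1 high library, Pearson correlations of log2(FPKM + 0.1) between the genes ran from 0.668 (Thbs2 with Comp) to 0.956 (Thbs2 with Thbs3). Among the 6 genes, Thbs1 was closest to Thbs3 (0.931) and Comp (0.911), and Cd47 was closest to Comp (0.930). Many other genes were closer still. Among all tested genes Thbs3 ranked 289 and Comp 447 in likeness to Thbs1, Comp ranked 250 for Cd47, and Thbs3 ranked 470 for Thbs2. The 5 tested genes most like Thbs1 were Fibin, Actn4, Chsy1, Acvr1 and Pls3, with r from 0.993 to 0.998. Actn4 and Pls3 encode actin-crosslinking proteins and Acvr1 a BMP type I receptor. Nearest to Thbs2 were Col5a2, Trem2 and Col5a1, of which Col5a1 and Col5a2 encode collagen V chains. Thbs3 was most like the processed pseudogene AA414768, Lrrc59 and Dok2, Thbs4 like Zbtb7b, Camsap1 and Jpt2, Comp like Fbxw17, Csrp2 and Cyp20a1, and Cd47 like Igsf3, Smarcad1 and Fstl3, all with r of at least 0.989. None of these genes had an adjusted p under 0.05 in the limma comparison, where the lowest was 0.106 (Fstl3).

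The spread among HFpEF hearts was wide for the ligands, and for some of them it was wide in Chow too. On the log2 scale the HFpEF SD was 2.36 for Thbs1, 1.44 for Thbs2, 1.31 for Thbs3, 1.49 for Thbs4 and 0.98 for Comp, against a median of 0.27 over all tested genes. These SDs lay at the 99.1st, 97.1st, 96.6th, 97.3rd and 94.0th percentile of tested genes. HFpEF replicate 3 deviated widely: it was the HFpEF library farthest from the Chow mean for 62.9% of all tested genes, on the log2 scale. It was the highest HFpEF library for 38.5% of them. Cd47, at 0.081, lay at the 9.56th percentile. In Chow the SD of Thbs2 was 0.077 and that of Thbs1 0.354, against a median of 0.138. The Chow SDs of Thbs4, Comp and Thbs1 lay at the 92.7th, 90.1st and 84.1st percentile. Those of Thbs3, Thbs2 and Cd47 lay at the 73.1st, 25.1st and 24.4th.

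The order of the levels also differed. In Chow hearts Cd47 (12.5 FPKM) was highest, followed by Thbs2 (7.55), Comp (2.38), Thbs3 (1.76), Thbs1 (1.33) and Thbs4 (1.06). Cd47 and Thbs2 stood apart from their neighbours, whereas the ranges of Comp and Thbs3, Thbs3 and Thbs1, and Thbs1 and Thbs4 overlapped. In HFpEF the order of the means was Thbs2, Thbs1, Comp, Cd47, Thbs3 and Thbs4, and the ranges of all neighbours overlapped.

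Summed over the 5 thrombospondins, the FPKM was 13.8, 13.8 and 14.7 in Chow and 55.4, 22.4 and 145.5 in HFpEF. The ratio of means was 5.29, and the difference on the log2 scale was 2.01 (exact permutation p = 0.1, the smallest possible) or 1.32 without HFpEF replicate 3. Thbs2 made up 57.3%, 55.2% and 48.5% of the sum in Chow and 17.8%, 48.0% and 39.9% in HFpEF. The share of Thbs1 was 6.97%, 11.1% and 10.3% in Chow and 30.9%, 7.75% and 30.7% in HFpEF (exact permutation p = 0.3), so HFpEF replicate 2 kept a Chow-like share. Comp was the leading member in HFpEF replicate 1, with 40.05% of the sum. Relative to the receptor, summed ligand FPKM was 1.05, 1.17 and 1.18 times that of Cd47 in Chow and 3.74, 1.62 and 9.37 times in HFpEF.

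**Figure D4:**
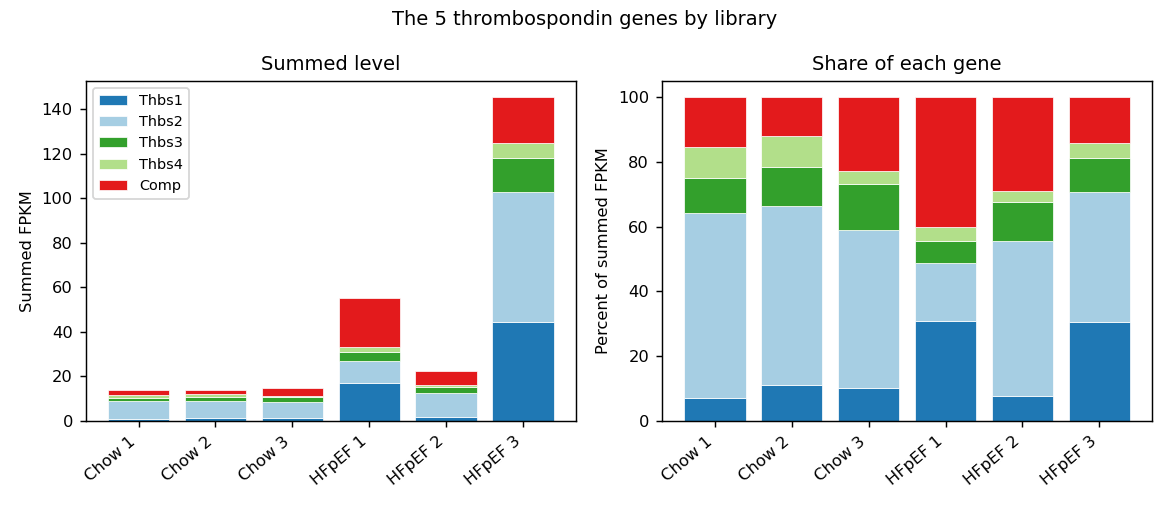
Summed FPKM of the 5 thrombospondin genes in each library (left) and the percent contributed by each gene (right). The sum was 13.8 to 14.7 FPKM in Chow and 22.4 to 145.5 FPKM in HFpEF, and the share of Thbs1 was 30.9% and 30.7% in HFpEF replicates 1 and 3 against 7.75% in replicate 2.

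Among 16 receptors and clearance proteins of the thrombospondins, 15 were tested. limma called 0 at the adjusted threshold, and 7 were higher and 1 lower at an unadjusted p under 0.05, where 10.2% of all tested genes were higher and 13.1% lower, with a median log2 fold change of 0.24 beside −0.012 over all tested genes. Cd36, the fatty acid translocase that binds type 1 repeats, was the most abundant, and it measured 442, 438 and 459 FPKM in Chow and 327, 343 and 248.9 FPKM in HFpEF. Its log2 fold change was −0.56 (adjusted p = 0.145), the opposite sign to Cd47. Itgb1, the integrin beta 1 chain, and Calr, the calreticulin partner of Lrp1 in binding Thbs1, overlapped between groups. The other receptors named here were chosen after their values were seen. Itgb3, which pairs with Itgav to bind the RGD motif, was 0.560, 0.926 and 0.603 FPKM in Chow and 2.30, 1.33 and 4.90 FPKM in HFpEF, with the same replicate order as Thbs1. Lrp1, the endocytic receptor that clears thrombospondins, differed by 1.08 on the log2 scale (adjusted p = 0.115), and by 0.79 without HFpEF replicate 3 (adjusted p = 0.0151). Sirpa, the counter-receptor of Cd47 on myeloid cells and cardiomyocytes, was 10.3, 11.0 and 8.06 FPKM in Chow and 11.2, 11.7 and 24.3 FPKM in HFpEF.

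All 23 genes of latent TGF-beta and its response were tested and had a positive log2 fold change. Their median was 0.88, beside −0.012 over all tested genes, but 0 passed the adjusted threshold by limma. At an unadjusted p under 0.05, 12 were higher and 0 lower, beside 10.2% and 13.1% of all tested genes. Without HFpEF replicate 3 the median was 0.59 and 7 passed as higher, beside 2.85% of tested genes called higher. By mean FPKM over the 6 libraries its most abundant members were Col1a1, Col3a1 and Acta2. Outside HFpEF replicate 3 the collagens were far lower, with Col3a1 at 36.1 to 118 FPKM against 1810 FPKM there. In every Chow library Ltbp4, at 120 to 124 FPKM, was the highest of the list. Col1a1, a fibrillar collagen chain, was 27.2, 25.6 and 24.9 FPKM in Chow and 53.9, 87.3 and 2252 FPKM in HFpEF, so here HFpEF replicate 2 exceeded replicate 1, unlike Thbs1. Tgfb1 itself, the ligand whose latent form Thbs1 activates, overlapped between groups, with 6.81 to 8.497 FPKM in Chow and 7.71 to 10.8 FPKM in HFpEF.

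The other matricellular proteins gave 0 calls by limma among 17 tested, with a median log2 fold change of 1.03. At an unadjusted p under 0.05, 10 were higher and 1 lower, beside 10.2% and 13.1% of all tested genes. Sparc, a collagen-binding glycoprotein, Sparcl1 and Postn, periostin, were the most abundant by mean FPKM. Postn was at 356 FPKM in HFpEF replicate 3 and at 4.27 to 19.2 FPKM in the other libraries. Sparc was 104, 104 and 106 FPKM in Chow and 122, 127 and 797 FPKM in HFpEF, the shape of Thbs2. Ccn3, chosen after its values were seen, was 1.59, 1.07 and 1.67 FPKM in Chow and 40.4, 1.69 and 30.3 FPKM in HFpEF, so like Thbs1 it stayed near Chow in HFpEF replicate 2, but it was highest in replicate 1. Among 12 tested proteases and inhibitors that act on thrombospondins, limma called 0. At an unadjusted p under 0.05, 4 were higher and 1 lower, beside the same shares of all tested genes. Timp2, Mmp2 and Htra1 were the most abundant of them.

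Cell type markers also differed between the libraries, some in the direction of these genes and some against it. In bulk tissue more cells of a type and more RNA per cell cannot be told apart. The sum of 10 smooth muscle and pericyte markers was 335 to 375 FPKM in Chow and 726, 245 and 559 FPKM in HFpEF replicates 1, 2 and 3. Acta2, smooth muscle actin, was 53.2, 73.2 and 77.9 FPKM in Chow and 421, 48.8 and 262 FPKM in HFpEF, and thus high in the 2 hearts where Thbs1 was high. It was also the largest part of the sum in both. Myh11 and Cnn1, contractile genes chosen after their values were seen, had the same form, with 63.6, 6.99 and 30.4 FPKM for Myh11 in HFpEF. The pericyte genes Rgs5 and Abcc9 did not, and Abcc9 was 52.3 to 57.1 FPKM in Chow and 27.1 to 33.5 FPKM in HFpEF. At an unadjusted p under 0.05, 0 of 9 tested markers of this list were higher and 2 lower, beside 10.2% and 13.1% of all tested genes. After adjustment limma called 0 of them. The part of these cells in the values of Thbs1 was not tested.

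Fibroblast markers summed to 736 to 937 FPKM in Chow and 1349, 1352 and 2001 FPKM in HFpEF. The sum of replicate 3 rested on Col1a2, at 32.3, 44.5 and 702 FPKM in HFpEF. Gsn, the most abundant of the list by mean FPKM, was 814, 831 and 495 FPKM in HFpEF, within the Chow range in replicate 3. limma called 0 of 11 with all libraries, and 8 were higher at an unadjusted p under 0.05, beside 10.2% of all tested genes. Without HFpEF replicate 3, 9 passed the adjusted threshold as higher, beside 2.85% of tested genes. Macrophage markers summed to 240 to 302 FPKM in Chow and 295, 402 and 976 FPKM in HFpEF. That sum was highest in replicate 3, as were Thbs1, Thbs2, Thbs3 and Thbs4. Of 10 macrophage markers tested, 3 were higher at an unadjusted p under 0.05, beside 10.2% of all tested genes, and limma called 0. Platelets store Thbs1 protein, and the sum of 10 platelet markers was 20.4 to 27.4 FPKM in Chow and 25.8 to 34.8 FPKM in HFpEF, with Pf4 as most of it and Gp1bb at 0 in all libraries. Only 5 of the platelet markers passed the filter. Of these 1 was higher at an unadjusted p under 0.05, beside the same share of all tested genes, and limma called 0.

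Comp is a marker of cartilage and tendon, and 14 other genes of those tissues were summed. The sum was 8.95, 8.39 and 12.8 FPKM in Chow and 58.6, 40.9 and 35.6 FPKM in HFpEF. Of 5 tested, limma called 0 and 3 were higher at an unadjusted p under 0.05, beside 10.2% of all tested genes. Fmod, fibromodulin, was 4.29, 2.79 and 3.73 FPKM in Chow and 25.0, 8.07 and 12.98 FPKM in HFpEF, the replicate order of Comp. Cilp2, a cartilage intermediate layer protein, was 0.081, 0.178 and 3.87 FPKM in Chow and 12.5, 29.6 and 1.82 FPKM in HFpEF. It was thus highest in replicate 2, where it was most of the sum, and lowest in replicate 3, unlike Comp. Chad, chondroadherin, was 0.669, 0.508 and 0.345 FPKM in Chow and 13.001, 0.281 and 6.84 FPKM in HFpEF. The defining tendon gene Tnmd was at 0 in 4 libraries and at most 0.153 FPKM, and the cartilage collagen Col2a1 was at most 0.018 FPKM.

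Ventricular cardiomyocyte markers summed to 15148 to 16662 FPKM in Chow and 10734, 11378 and 7244 FPKM in HFpEF, and all 9 lay lower in every HFpEF library, as did 19.8% of all tested genes. By limma 5 of 9 were lower at an unadjusted p under 0.05, beside 13.1% of all tested genes, and 0 after adjustment. The atrial sum was 72.6 FPKM in HFpEF replicate 3, where Thbs1, Thbs2, Thbs3 and Thbs4 were highest, and far higher in replicates 1 and 2. Those 2 libraries differed in Thbs1 and also in single atrial markers. Bmp10 was 148 FPKM in replicate 1 and 0.026 FPKM in replicate 2, and Myl7 was 974 and 2073 FPKM. The atrial markers were not alike in HFpEF replicate 3 either. There Nppa, at 8.02 FPKM, was below every Chow library and Dkk3, at 40.7 FPKM, was above every one. Bmp10 and Dkk3 were chosen after their values were seen. Of 6 tested, 1 was higher at an unadjusted p under 0.05, beside 10.2% of all tested genes, and limma called 0. The part of tissue makeup in the values of the 6 genes was not tested.

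**Figure D5:**
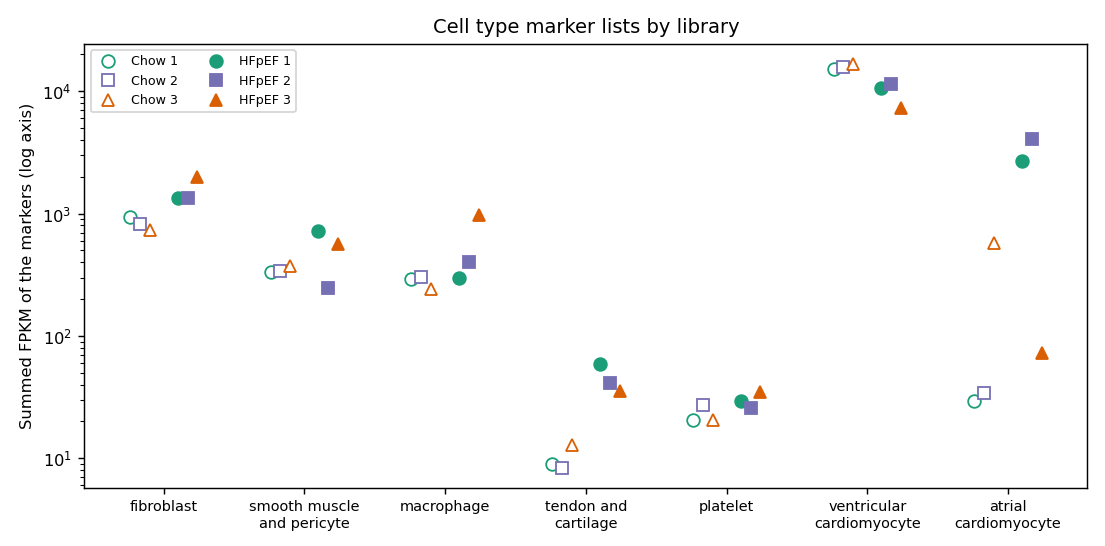
Summed FPKM (log axis) of 7 cell type marker lists in each library, with open symbols for Chow, filled symbols for HFpEF and the shape giving the replicate number. The smooth muscle and pericyte sum was high in HFpEF replicates 1 and 3, where Acta2 was 421 and 262 FPKM. The fibroblast and macrophage sums were highest in replicate 3, and the atrial sum was highest in replicates 1 and 2. Col1a2 made up 702 FPKM of the fibroblast sum in replicate 3.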

How the data were processed

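RNA-seq libraries were made from total RNA of mouse heart, 3 Chow and 3 HFpEF, each from a different mouse per the study's methods. The authors aligned reads with HISAT2 and counted genes with featureCounts, and the deposited values are FPKM per Ensembl gene. The labels name GRCm38 and mm10 as the builds. How FPKM was computed from counts, and whether strand was used, are not given in the sources used here. FPKM times the union exon length of GENCODE M21 was a whole multiple of 1 step per library (tolerance 1e-06) for 96.1% to 96.2% of values, which gave the read counts. Of 54532 identifiers, 54495 were in that annotation.

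Libraries were rescaled by the median of ratios (factors 0.999 to 1.00), and the FPKM printed are the rescaled ones. This changed the deposited values very little. Genes with at least 0.5 FPKM in at least 3 libraries were kept (14227). limma 3.58.1 (trend and robust options, R 4.3.3) was fitted on log2(FPKM + 0.1), with Benjamini-Hochberg adjustment over all genes kept. The pseudocount understates changes of low genes. The study fitted a count model. Here the main test was made on the deposited FPKM, and the recovered reads entered only the voom alternative. Single values were tested by exact two-sided permutation. The script was tested on simulated data. Intervals of a fold change are 95% intervals of the fit.

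The genes, lists and tests were chosen with earlier results of these data known. In each list the rule named the 3 genes with the highest mean FPKM and up to 4 past the adjusted threshold, and genes named outside it were chosen after their values were seen. Likeness was the Pearson correlation over the 6 libraries, naming 5 genes for Thbs1 and 3 for each other gene. Lists cover receptors, latent TGF-beta, nitric oxide and cGMP, other matricellular proteins, proteases, type 1 repeat proteins, endoplasmic reticulum chaperones, immediate early genes and 12 sets of cell type markers. Alternatives were other scalings, pseudocounts and filters, the variance model, voom on the recovered reads, a block by replicate number, and fits that omit 1 library.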

Additional observations from a re-analysis of the deposited data

How the results depend on the processing

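Leaving out 1 library at a time gave log2 fold changes of 2.00 to 4.30 for Thbs1, 0.45 to 1.72 for Thbs2, 0.85 to 2.10 for Thbs3, 0.41 to 1.90 for Thbs4, 2.29 to 3.17 for Comp and 0.20 to 0.29 for Cd47, and 0 to 2 of the 6 genes past the adjusted p. Thbs1 (4.30) and Comp (3.17) passed without HFpEF replicate 2, and Thbs2 (0.45) passed without HFpEF replicate 3. At an unadjusted p under 0.05, 4 genes passed, but 3 with quantile normalization, with no filter, without trend or robust options or with the block, 2 with voom, and 1 to 5 when single libraries were left out. Over all tested genes 1454 were higher at that threshold, against 1135 with quantile normalization, 1558 with voom and 882 to 1568 when single libraries were left out. The Comp change minus the Thbs1 change turned to 0.35 without HFpEF replicate 3, over a range of −1.13 to 0.35. The causes were not tested. No other alternative run moved a fold change across the adjusted threshold or turned the sign of a result. With the replicate number as a replicate block the log2 fold change of Thbs1 was 3.00 (limma adjusted p = 0.204) and that of Comp 2.60 (adjusted p = 0.194), and the block changed no adjusted call among 7 results tested. Libraries with the same number did not deviate together (correlations of −0.041, −0.073 and −0.057), so the numbers do not pair the samples. Over all genes the count past the adjusted p was 13 higher and 1 lower, against 0 with voom, 2 and 0 with the replicate block, 27 and 6 without trend or robust options, 3 and 0 at a pseudocount of 1, 406 and 763 without HFpEF replicate 3, and 47 and 6 without HFpEF replicate 2. With 3 libraries a group, low reads (23 to 111 for Thbs4 and Thbs1 in single Chow libraries) limit these values.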

Other observations

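Nitric oxide and cGMP signaling, the pathway that Thbs1 restrains through Cd47 and that L-NAME targets, had 9 tested genes, and limma called 0. At an unadjusted p under 0.05, 1 was higher and 2 were lower, beside 10.2% and 13.1% of all tested genes. The most abundant were Cav1, Kdr and Vasp, of which Kdr was lower in every HFpEF library (log2 fold change −0.45, limma adjusted p = 0.110). Nos3, the endothelial synthase, was 10.9, 10.7 and 8.54 FPKM in Chow and 10.4, 10.03 and 8.61 FPKM in HFpEF. Nos2, another synthase, was 3.98, 6.02 and 3.71 FPKM in Chow and 2.24, 3.09 and 2.15 FPKM in HFpEF. It was thus lower in every HFpEF library (log2 fold change −0.83, limma adjusted p = 0.128). Gucy1a1, a soluble guanylate cyclase subunit, was 6.05, 4.98 and 7.001 FPKM in Chow and 12.7, 15.04 and 13.5 FPKM in HFpEF, without overlap and with little spread, at a limma adjusted p of 0.0596 (0.0170 without HFpEF replicate 3). Nos2, Nos3 and Gucy1a1 were chosen after their values were seen.

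Other proteins with thrombospondin type 1 repeats had 19 tested genes, with 0 called by limma. At an unadjusted p under 0.05, 4 were higher and 2 lower, beside 10.2% and 13.1% of all tested genes. Their most abundant members were Adamtsl5, Adamtsl4 and Unc5b. Endoplasmic reticulum chaperones and ATF6 targets, which Thbs4 is known to raise inside cells, had 17 tested genes, with 0 called by limma. At an unadjusted p under 0.05, 6 were higher, beside the same 10.2% of all tested genes. Hspa5, the chaperone BiP, was 101, 97.6 and 110 FPKM in Chow and 82.3, 95.8 and 107 FPKM in HFpEF. Immediate early genes, which respond within minutes to stimulation of a cell, had 16 tested genes. Of these 1 was higher at an unadjusted p under 0.05, beside that share, and limma called 0.

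Of the marker lists not given above, 4 of 9 tested adipocyte markers rose by limma (Cfd, Car3, Cidec and Adipoq). Over all tested genes 0.0984% were called in either direction, and voom called 0 of all genes. All 4 were at most 0.030 FPKM in Chow, so they met the filter only through the HFpEF libraries. Genes kept in that way can only be higher, so their count is not comparable with that share. Fabp4 (log2 fold change −0.49) and Pnpla2 (−0.50), of the same list, were lower in every HFpEF library, with adjusted p of 0.118 and 0.254. Cfd, adipsin, was at 0 in all Chow libraries and at 35.3, 37.8 and 22.9 FPKM in HFpEF, so among the HFpEF hearts it was lowest in the one with the most Thbs1. limma called 0 of 10 endothelial, 0 of 9 mesothelial, 0 of 5 skeletal muscle and 0 of 2 neutrophil markers. At an unadjusted p under 0.05, 4 endothelial markers were lower, 6 mesothelial markers were higher and 1 skeletal muscle marker was lower, where 10.2% of all tested genes were higher and 13.1% lower. Mesothelial markers were highest in HFpEF replicate 2, with a sum of 145.8 FPKM.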
